A study of Mus musculus with 12 samples.

Results

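Brown adipose tissue burns fuel in its mitochondria to make heat. The 6 libraries described here come from that tissue in mice of 14 to 16 weeks: 3 carry the genotype label Flox and 3 the label KO, which the series names Nfe2l1(f)-KO. They are all the count columns of the 14-16-week table, 6 of the 12 libraries of the series, and were compared within that table alone. Total RNA of the tissue was made into stranded mRNA libraries, and the table holds raw counts of reads for each gene. Flox is the usual name of mice whose gene carries recombination sites and that serve as controls, so both groups would share those sites. The labels name neither the recombinase and its promoter nor the deleted exons, and they do not say whether each library is 1 animal. The p-values therefore measure the spread between these libraries, which may be technical. Each of the 6 libraries held more reads of the Y-linked Ddx3y than of Xist, the RNA of the inactive X chromosome.

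Nfe2l1 encodes NRF1, a transcription factor anchored in the membrane of the endoplasmic reticulum. The protein is normally pulled out of the membrane and degraded by the proteasome. When proteasome capacity falls short, a cleaved form enters the nucleus, pairs with small MAF proteins at antioxidant response elements and raises the genes of the proteasome subunits. Brown adipocytes depend on this factor to keep protein turnover up with the load of thermogenesis. The comparison asks which transcripts went with the KO label in brown fat of adult mice.

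The libraries held 27711683 to 37447086 counted reads. Values below are CPM, read counts scaled to a fixed total through the TMM-adjusted library size, in the order of replicates 1, 2 and 3, and every log2 difference is labelled KO minus Flox from the edgeR fit with its standard error (SE). Of 49492 genes, 17962 held enough reads to be tested, and 0 of them (0%) passed an adjusted p of 0.05 in edgeR's quasi-likelihood test, while 1475 (8.21%) had an unadjusted p under 0.05, 4.64% higher and 3.57% lower in libraries labelled KO. DESeq2 gave an adjusted p for 17841 genes and called 49 of them (0.275%), 32 higher (0.179%) and 17 lower (0.0953%). It gave none for the rest, among them Trem2, Lgals3, Col1a1 and Casp1, described below. Replicate 2 labelled KO stood apart: in 1380 genes it was the highest of all libraries by at least 2-fold, against 18 to 248 genes for each of the others. It also held the smallest share of mitochondrially encoded reads, 3.12% against 9.42% to 14.1% elsewhere. Replicate 3 labelled KO was closest to a Flox library, with a Spearman correlation over genes of 0.983 with Flox replicate 3. Skeletal muscle transcripts differed widely between the libraries of both groups. For these reasons most named genes are given by library. Where leaving out 1 library turned the direction of a difference or list median, or moved it by over 1.5 times, the most extreme such values follow it. A gene is called apart below where the 2 groups do not overlap. Of all genes tested 6% were apart in the higher direction and 6.88% in the lower, and later counts stand beside these shares. In tissue RNA, fewer cells of a type and less RNA per cell cannot be told apart.

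The tissue's own markers were present in all libraries. Per kilobase of gene length, Ucp1, the uncoupling protein that releases heat, measured 3434, 643 and 1287 CPM in Flox and 1435, 342 and 756 CPM where the label was KO. Adipoq, an adipocyte hormone, measured 355, 441 and 503 against 489, 225 and 522 CPM per kilobase. The 2 groups overlapped for both genes.

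Nfe2l1 itself (GRCm38, chromosome 11, 96817414 to 96829968) had more reads in the libraries labelled KO. It measured 171, 197 and 212 CPM in Flox against 855, 1079.8 and 469 CPM in the labelled KO libraries. Each library labelled KO lay above every Flox library, and replicate 3 was the lowest of the 3. The means were 801 ± 309 and 193 ± 20.6 CPM (SD, n = 3 each), a log2 difference of 2.05 (SE 0.36, unadjusted p = 0.000453). It did not pass in edgeR (adjusted p = 0.569) and was called by DESeq2 (2.07, adjusted p = 0.000128). The loss of a whole transcript would lower this count, so the gene goes against its label, although a count of the entire gene cannot check a deleted part. The text therefore says libraries labelled KO, and each direction is that of the label. The nearest tested genes on the chromosome had smaller differences: Cbx1 held 1936, 2051 and 2491 reads against 3427, 4581 and 3123 (log2 difference after scaling 0.28), and Copz2 held 472, 504 and 541 reads against 500, 551 and 872 (-0.11, and 0.11 without replicate 2 labelled KO).

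Genes that act on or with NRF1 were mixed, with 7 of 14 above 0. Vcp, the ATPase that extracts NRF1 from the membrane, measured 247, 261 and 291 CPM in Flox against 173, 189 and 175 CPM in the labelled KO libraries, with no overlap between the groups. Its log2 difference was -0.58 (SE 0.24). Sel1l, a part of the ligase complex that degrades unneeded NRF1, measured 31.6, 43.9 and 42.9 CPM in Flox against 91.3, 130.1 and 47.9 CPM in the labelled KO libraries (1.19, SE 0.37), and was higher in each library labelled KO. The relatives of Nfe2l1 did not separate by label: Nfe2l2, the oxidative stress factor NRF2, measured 64.2, 59.2 and 66.6 CPM in Flox against 48.7, 71.2 and 56.4 CPM in the labelled KO libraries. Nfe2l3 stayed under 5 CPM in all libraries. Ddi2, the protease that cleaves NRF1 into its active form, measured 58.5, 38.9 and 69.5 CPM in Flox against 68.7, 79.9 and 59.9 CPM in the labelled KO libraries.

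Proteasome genes are the known targets of NRF1, and the promoters of some hold the element it binds. The core of the antioxidant response element was searched as TGACNNNGC on both strands from 250 bases before to 50 after each start in RefSeq promoters of GRCm38.p6. It occurred in 12.5% of 27025 promoters. Of the 14 genes of the 20S core, 11 had a promoter in the table. Psmb1, Psmb2 and Psmb7, the last also a catalytic subunit, had none there and were not searched. The element was held by 2 of the 11 (18.2%), Psmb5 and Psmb6, which encode catalytic subunits. The other core promoters searched, that of Psmb4 among them, held none. It was found in 3 of 15 promoters (20%) of the 19S cap (Psmc6, Psmd12 and Adrm1), 2 of 11 of assembly factors and activators and 0 of 3 of the immunoproteasome. These small counts lie near the share of all promoters. The promoters of Psmb5 and Psmb6 are shown because they are the ones searched of the core list that hold the element. Capitals mark the element, whose first base lies 47 bases before the start in Psmb5 (chr14:54617946-54618245, minus strand) and 9 bases before it in Psmb6 (chr11:70525107-70525406, plus strand). A match describes letters and does not show binding.

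Psmb5: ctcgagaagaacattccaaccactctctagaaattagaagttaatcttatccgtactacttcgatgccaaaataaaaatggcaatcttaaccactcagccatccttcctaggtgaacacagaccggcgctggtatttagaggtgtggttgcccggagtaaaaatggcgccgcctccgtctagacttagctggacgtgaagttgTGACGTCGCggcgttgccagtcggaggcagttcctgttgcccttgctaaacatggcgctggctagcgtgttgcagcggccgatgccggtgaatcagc

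Psmb6: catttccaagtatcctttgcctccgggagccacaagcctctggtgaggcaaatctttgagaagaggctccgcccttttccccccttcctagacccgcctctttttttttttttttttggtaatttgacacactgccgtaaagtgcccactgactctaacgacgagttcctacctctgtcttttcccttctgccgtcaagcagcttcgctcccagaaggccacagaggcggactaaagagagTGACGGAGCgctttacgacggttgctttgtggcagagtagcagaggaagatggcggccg

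The 20S core, the barrel in which proteins are cut, was lower in the libraries labelled KO. All 14 of its 14 genes were tested, 0 lay above 0 and the median log2 difference was -0.63, beside 0.02 over all genes, of which 51.5% lay above 0. In 13 of the 14 every library labelled KO lay under every Flox library, an arrangement seen in 6.88% of all genes tested. Psmb5, the chymotrypsin-like subunit with the element above, measured 45.1, 32.4 and 34.1 CPM in Flox against 24.4, 25.2 and 25.5 CPM in the labelled KO libraries. The 3 libraries labelled KO were almost level and all under the lowest Flox library, with a log2 difference of -0.57 (SE 0.23, unadjusted p = 0.037). Psmb6, the caspase-like subunit, measured 103, 68.1 and 72.7 CPM in Flox against 36.2, 37.3 and 65.04 CPM in the labelled KO libraries, and its groups were apart although replicate 3 labelled KO came near Flox (-0.82, SE 0.32). Psmb7, the trypsin-like subunit, measured 141, 126 and 129 CPM in Flox against 97.1, 81.5 and 95.9 CPM in the labelled KO libraries (-0.53, SE 0.23). The lowest member was Psmb4, a structural subunit, at 73.6, 54.4 and 55.8 CPM in Flox against 28.6, 26.5 and 42.4 CPM in the labelled KO libraries (-0.92, SE 0.27). Psma2, a subunit of the outer ring, was among the smallest differences at -0.39 (SE 0.23). Psma5 was the 1 gene that overlapped between the groups. Short transcripts in general were lower in the libraries labelled KO, and with transcript length as an offset the median of the core was -0.26. The 11 core genes under 1600 bases had a median of -0.60 and 10 apart, beside -0.27 for all genes of that length at 5 CPM or more. The 3 core genes from 1600 bases had -0.82 and 3 apart, beside 0.11. These lengths are of principal transcripts. By the gene length given with the counts, Psma2 (944 bases) and Psmb1 (1036 bases) of these 3 would fall under 1600 bases.

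**Figure D1:**
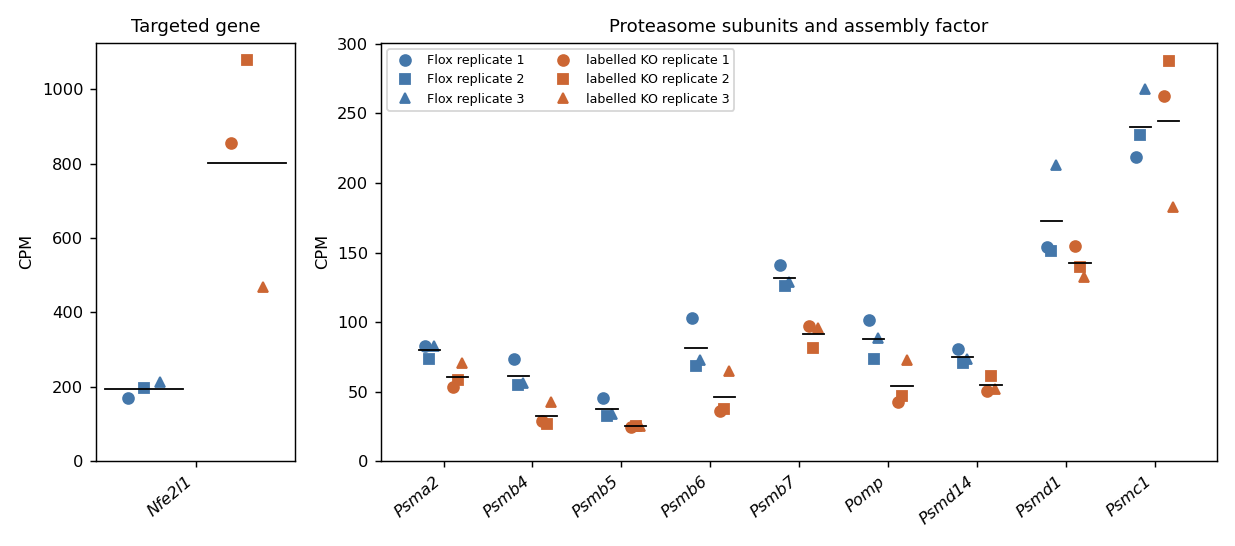
Levels of Nfe2l1 (left) and of 9 proteasome genes (right) in CPM, 1 point per library and a bar at the mean of each group of 3. Nfe2l1 lies higher in the libraries labelled KO (469 to 1080 CPM against 171 to 212), while the 20S subunits Psmb4 to Psmb7 and the assembly factor Pomp lie lower, and the 19S subunits Psmd1 and Psmc1 overlap.

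The 19S cap, which recognises and unfolds tagged proteins, had differences nearer to 0. Of its 18 genes 2 lay above 0 and the median was -0.19 (-0.08 without replicate 3 labelled KO). In 4 the groups were apart in the lower direction, beside 6.88% of all genes tested. Among them were Psmd4, a ubiquitin receptor (-0.85, SE 0.29), and Psmd14, the deubiquitinase of the cap. Psmd14 measured 80.6, 70.5 and 73.2 CPM in Flox against 50.2, 61.2 and 51.9 CPM in the labelled KO libraries (-0.46, SE 0.22). Psmc1, an ATPase of the base, measured 218, 234 and 268 CPM in Flox against 263, 288 and 183 CPM in the labelled KO libraries, with overlap. Of 12 assembly factors and activators 4 lay above 0 and the median was -0.17 (-0.03 without Flox replicate 3). With the length offset the medians of the cap and of these factors were -0.07 and 0.16. Pomp, the chaperone that builds the 20S core, measured 102, 73.7 and 88.6 CPM in Flox against 42.8, 46.6 and 72.7 CPM in the labelled KO libraries (-0.70, SE 0.29), with every library labelled KO lower.

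The immunoproteasome, a variant with 3 exchanged catalytic subunits that interferon raises, had a median of 0.02 (-0.22 to 0.39 when 1 library was left out). Psmb8 measured 52.3, 59.8 and 80.99 CPM in Flox against 27.9, 96.8 and 71.3 CPM in the labelled KO libraries. Reads of its 3 subunits per 1000 reads of the constitutive Psmb5, Psmb6 and Psmb7 were 282, 436 and 576 in Flox against 345, 1032 and 627 in the labelled KO libraries. The groups overlapped, with the highest ratio in replicate 2 labelled KO (difference in log2 ratio 0.55, exact two-sided permutation test p = 0.4, adjusted over 4 ratios 0.533; 3 against 3 libraries cannot go below 0.1).

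Many genes of 1 pathway were lower together in the respiratory chain, the set of mitochondrial complexes that pass electrons to oxygen and drive ATP synthesis or heat. Of 78 nuclear-coded genes of complexes I to V, 6 lay above 0 and the median log2 difference was -0.96. In 55 every library labelled KO lay under every Flox library, beside 6.88% of all genes tested. The median was -0.63 without replicate 2 labelled KO. The list score, the mean of log2 CPM centred on the 6 libraries, was 0.52, 0.54 and 0.40 across Flox and -0.18, -1.31 and 0.03 across the libraries labelled KO. Replicate 2 labelled KO was the lowest by far, and replicates 1 and 3 lay under all 3 Flox libraries. Replicate 2 was also the library richest in macrophage and matrix transcripts, whose part in its low value was not tested. Skeletal muscle, which is rich in these genes, was highest in replicate 1 labelled KO (muscle score, the mean centred log2 CPM of its markers, 3.37) and lowest in Flox replicate 1 (-2.19), and with that score as a covariate the median was -0.91.

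By complex, complex I, the NADH dehydrogenase, had 1 of 36 genes above 0 and 27 apart, with a median of -0.96 (-0.61 without replicate 2 labelled KO). Its lowest gene was Ndufb7, an accessory subunit, at 1042, 529.6 and 440.5 CPM in Flox against 262, 117 and 342 CPM in the labelled KO libraries (-1.48, SE 0.49). Complex II, succinate dehydrogenase, had a median of -1.01 (-0.66 without replicate 2 labelled KO) over 4 genes, and its iron-sulfur subunit Sdhb measured 480.4, 488 and 344 CPM in Flox against 237, 99.97 and 275 CPM in the labelled KO libraries (-1.10, SE 0.40). Complex III had 0 of 9 above 0, 7 apart and a median of -0.99, with the Rieske protein gene Uqcrfs1 at -1.03 (SE 0.42) and the small subunit gene Uqcrq at -1.31 (SE 0.44).

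Complex IV, cytochrome c oxidase, had 1 of 13 above 0, 9 apart and a median of -1.0. Cox8b, a form of subunit VIII found in brown fat and muscle, measured 263, 289 and 247 CPM in Flox against 128, 35.7 and 148 CPM in the labelled KO libraries (-1.36, SE 0.48). Cox7a1, another tissue-specific subunit, measured 458, 634 and 543 CPM in Flox against 256, 99.5 and 368 CPM in the labelled KO libraries (-1.17, SE 0.46). For both genes the lowest library was replicate 2 labelled KO, and the other 2 labelled KO also lay under every Flox library. Cox5a (-1.0, SE 0.36) and Cox4i1 (-0.96, SE 0.42, -0.62 without replicate 2 labelled KO), subunits of all tissues, were lower to a similar degree. The 1 member above 0 was Cox6a2, a muscle form, at 0.158, 3.95 and 1.47 CPM in Flox against 13.6, 3.50 and 0 CPM in the labelled KO libraries. The ATP synthase had 3 of 16 above 0 and 9 apart, with a median of -0.75 and Atp5k, a small membrane subunit, lowest at -1.50 (SE 0.46).

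The subunits that the mitochondrial genome encodes lay on the same side. Of 13, 0 lay above 0, 6 were apart, and the median was -0.93 (-0.50 without replicate 2 labelled KO). mt-Atp6, a subunit of the ATP synthase, measured 532, 461 and 279 CPM in Flox against 170.3, 36.4 and 217 CPM in the labelled KO libraries (-1.59, SE 0.60), and mt-Co1, the catalytic subunit of complex IV, 27181, 34929 and 26817 CPM in Flox against 21009.6, 5364 and 19724 CPM in the labelled KO libraries (-0.95, SE 0.56, -0.54 without replicate 2 labelled KO). Both were apart, with replicate 2 labelled KO lowest. Mitochondrially encoded genes took 14.1%, 11.9% and 10.1% of all reads in Flox against 11.2%, 3.12% and 9.42% in the labelled KO libraries, which overlap. The difference in log2 share was -0.79 (exact two-sided permutation p = 0.2, adjusted over 4 ratios 0.4). Nuclear genes near-identical to these share reads with them in an unknown way. A set of such genes and 18S ribosomal RNA together took 13.2%, 13.2% and 9.20% of all reads in Flox. In the labelled KO libraries they took 6.21%, 1.99% and 8.41%, without overlap. The mitochondrial share above leaves these reads out, and no test was run on them.

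Other mitochondrial pathways had medians nearer to 0. The tricarboxylic acid cycle, which supplies electrons to the chain, had 6 of 16 genes above 0, and 10 without replicate 2 labelled KO. Its median was -0.10 (-0.40 without replicate 1 labelled KO, 0.12 without Flox replicate 3 and 0.11 without replicate 2 labelled KO), and its lowest gene was Suclg1, the succinyl-CoA ligase subunit (-1.20, SE 0.41). Fatty acid oxidation had a median of -0.37 (-0.74 without replicate 1 labelled KO and -0.11 without replicate 2 labelled KO) over 20 genes, with Etfb, the electron transfer flavoprotein, lowest (-1.19, SE 0.48). Breakdown of branched-chain amino acids, a fuel of brown fat, had 4 of 17 genes above 0, and 9 without replicate 2 labelled KO. Its median was -0.21 (-0.40 without replicate 1 labelled KO and 0.01 without replicate 2 labelled KO). Bckdha, a subunit of its rate-limiting dehydrogenase, measured 143, 173 and 131 CPM in Flox against 95.4, 47.1 and 109 CPM in the labelled KO libraries, with every library labelled KO lower (-0.83, SE 0.34, -0.54 without replicate 2 labelled KO). The 18 genes of mitochondrial gene expression and import had a median of -0.11 (-0.22 without replicate 1 labelled KO and 0.06 without replicate 2 labelled KO), and Tfam, the factor that packs and transcribes the mitochondrial genome, measured 50.4, 62.9 and 74.1 CPM in Flox against 89.8, 45.9 and 61.1 CPM in the labelled KO libraries.

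Transcript length moved with these results. Among 10181 genes with a mean of at least 5 CPM, those with a principal transcript of at most 800 bases had a median log2 difference of -0.50, and 32.1% of them were apart in the lower direction. Those over 4800 bases had a median of 0.22, and 2.6% were apart in the lower direction. Most respiratory chain transcripts are short. The 62 under 1600 bases had a median of -1.05 and 48 apart, beside -0.27 and 301 of 1701 apart for all genes of that length. The 16 from 1600 bases had -0.55 and 7 apart, beside 0.11 and 382 of 8480. The 7 longest, named here after their values were seen, went both ways. Atp5g1 (4715 bases), Ndufs1 (2661), Sdha (2900) and Atp5a1 (2471) were at 0.79, 0.34, 0.21 and 0.07. Ndufb2 (4371), Sdhc (3171) and Ndufab1 (3479) were at -1.43, -1.05 and -0.68. Of these 7, Ndufs1, Sdha and Atp5a1 changed sign without replicate 1 labelled KO, and Atp5g1 was 0.36 without it. With transcript length as an offset in each library the median of the respiratory chain was -0.58. That offset was fitted to genes with a mean of at least 5 CPM, members of the lists included. It may therefore take out part of their own shift, here and in the proteasome medians above. The 80 genes of cytosolic ribosomal proteins, also short, had a median of -0.40, with 2 above 0 and 6 apart in the lower direction. What part length has in these differences was not tested beyond these values.

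**Figure D2:**
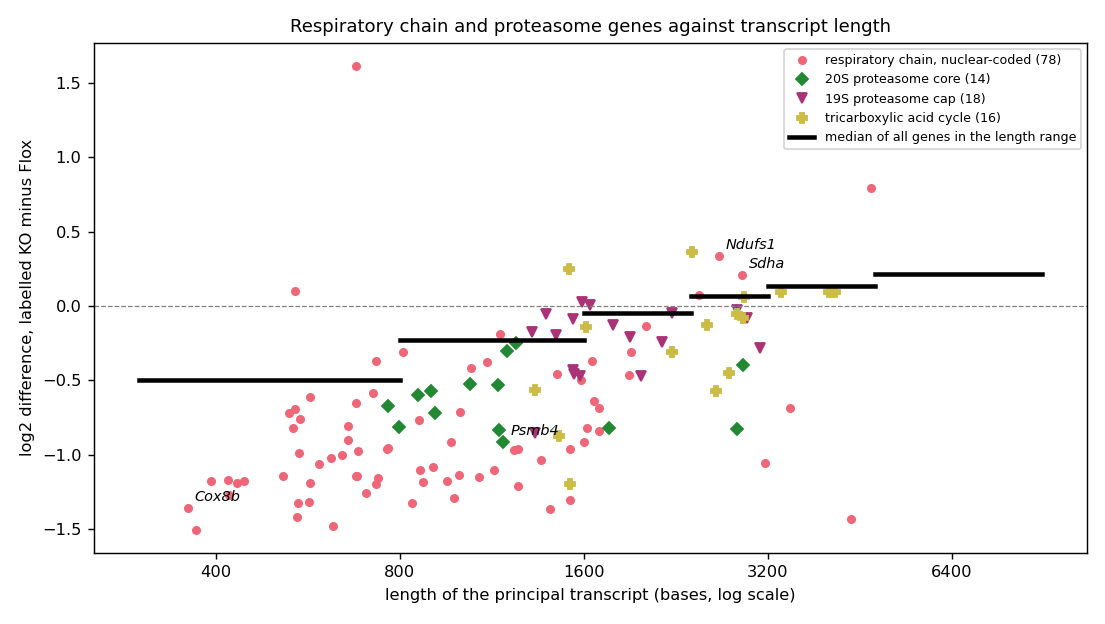
Log2 difference (labelled KO minus Flox) of each nuclear-coded respiratory chain, 20S, 19S and tricarboxylic acid cycle gene against the length of its principal transcript in bases (log scale), 1 point per gene. Black lines are the medians of all genes at 5 CPM or more in 6 length ranges, the first and last drawn in part. They run from -0.50 for the shortest to 0.22 for the longest, and most short respiratory chain genes lie under them.

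Adipocyte genes outside the respiratory chain did not separate as a group. Of 23 genes of brown adipocyte thermogenesis 11 lay above 0 and the median was -0.01 (-0.15 to 0.19 when 1 library was left out). Ucp1 measured 5619, 1053 and 2105 CPM in Flox against 2348, 559 and 1237 CPM in the labelled KO libraries, with the highest and the second lowest library both labelled Flox (-1.08, SE 0.71, -1.70 without replicate 1 labelled KO, -0.19 without Flox replicate 1, -0.70 without replicate 2 labelled KO, unadjusted p = 0.166). Its reads per Adipoq read differed by -0.83 in log2 (exact two-sided permutation p = 0.6, adjusted 0.6). Ckb, a creatine kinase of a second heat-producing cycle, measured 219, 59.1 and 30.5 CPM in Flox against 52.4, 33.6 and 18.4 CPM in the labelled KO libraries (-1.56, SE 0.73, -0.34 without Flox replicate 1), and its groups overlapped. Dio2, which activates thyroid hormone, stood at 750 CPM in Flox replicate 1 alone against 86.0 to 251 CPM in the other 5 libraries.

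General adipocyte genes had 7 of 21 above 0, and 13 without replicate 2 labelled KO. The median was -0.13 (-0.26 without replicate 3 labelled KO and 0.11 without replicate 2 labelled KO). Fabp4, the fatty acid carrier, was apart at 26866, 17072 and 15507 CPM in Flox against 12632, 6213 and 14202 CPM in the labelled KO libraries (-0.85, SE 0.47, -0.55 without Flox replicate 1, -0.56 without replicate 2 labelled KO), and Retn, which encodes resistin, was apart at 88.7, 20.7 and 27.7 CPM in Flox against 17.7, 11.7 and 17.3 CPM in the labelled KO libraries (-1.55, SE 0.54, -0.63 without Flox replicate 1). Plin1, the lipid droplet coat, measured 774, 662 and 848 CPM in Flox against 1088, 599 and 871 CPM in the labelled KO libraries, with no separation. Scd1, the desaturase that makes oleate, measured 1418, 2620.3 and 4088 CPM in Flox against 3709, 14322 and 10089 CPM in the labelled KO libraries. Replicates 2 and 3 labelled KO were far above Flox and replicate 1 inside its range (1.79, SE 0.60, unadjusted p = 0.0171). The list of fatty acid synthesis to which it belongs had a median of -0.09 (-0.20 to 0.33 when 1 library was left out) over 18 genes. Slc7a10, an amino acid transporter of white adipocytes, was lower in most libraries labelled KO, at 138, 20.4 and 43.8 CPM in Flox against 9.60, 26.9 and 18.7 CPM in the labelled KO libraries, with overlap.

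Macrophage transcripts gave some of the clearest separations by label. A lipid-associated programme, known from macrophages that take up lipid and dying adipocytes, had 12 of 13 tested genes above 0, 6 of them apart in the higher direction beside 6% of all genes, and a median of 1.56. Gpnmb, a glycoprotein of such macrophages, measured 2.02, 1.08 and 2.82 CPM in Flox against 38.6, 562 and 15.9 CPM in the labelled KO libraries (6.70, SE 1.48, 3.78 without replicate 2 labelled KO; DESeq2 adjusted p = 0.001). Mmp12, the macrophage elastase, measured 1.03, 2.40 and 2.41 CPM in Flox against 34.9, 187 and 26.1 CPM in the labelled KO libraries (5.40, SE 0.90, unadjusted p = 0.000421). The lowest library labelled KO exceeded the highest Flox library several-fold in both genes, and replicate 2 was the highest. Mmp12 was called by DESeq2 (adjusted p = 1.46e-10), and without replicate 2 labelled KO it was the 1 gene that passed in edgeR (3.96, adjusted p = 0.0376).

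Atp6v0d2, a proton pump subunit, measured 1.58, 1.08 and 2.61 CPM in Flox against 17.8, 133 and 13.3 CPM in the labelled KO libraries (4.95, SE 1.01; DESeq2 adjusted p = 8.02e-07). Trem2, the lipid receptor of these cells, measured 1.66, 0.852 and 1.41 CPM in Flox against 6.11, 44.4 and 4.81 CPM in the labelled KO libraries (3.82, SE 0.93). Lgals3, galectin-3, measured 8.19, 5.57 and 19.1 CPM in Flox against 29.2, 268 and 22.02 CPM in the labelled KO libraries (3.28, SE 1.04), and its highest Flox library came close to the lowest labelled KO. Without replicate 2 labelled KO these 3 differences were 3.13, 2.06 and 1.22. DESeq2 gave no adjusted p for Trem2 and Lgals3. Other members did not separate: Spp1, osteopontin, measured 8.31, 5.88 and 35.9 CPM in Flox against 6.81, 40.5 and 10.6 CPM in the labelled KO libraries, and Acp5 21.9 to 28.9 against 19.6 to 29.0 CPM. The median of the list was 0.43 without replicate 2 labelled KO and 2.96 without Flox replicate 3.

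General macrophage genes had 18 of 18 above 0, 4 apart and a median of 1.67, which was 0.29 without replicate 2 labelled KO. Their score was -0.92, -0.90 and -0.14 across Flox and -0.14, 2.33 and -0.23 across the libraries labelled KO, so replicates 1 and 3 labelled KO lay beside Flox replicate 3. C1qa, a complement subunit made by macrophages, measured 11.2, 10.1 and 6.91 CPM in Flox against 17.7, 98.3 and 11.8 CPM in the labelled KO libraries (2.18, SE 0.78, 0.65 without replicate 2 labelled KO). Cd68, a lysosomal marker, measured 3.25, 4.57 and 11.9 CPM in Flox against 19.6, 183 and 11.1 CPM in the labelled KO libraries (3.44, SE 1.11, 1.22 without replicate 2 labelled KO), and Adgre1, which encodes F4/80, 0.95, 2.09 and 2.75 CPM in Flox against 6.99, 69.3 and 2.08 CPM in the labelled KO libraries (3.75, SE 1.23, 1.23 without replicate 2 labelled KO). For Cd68 and Adgre1, replicate 3 labelled KO lay below the highest Flox library. Ctss, a cathepsin of antigen-presenting cells, was apart (4.03, SE 1.21, 1.61 without replicate 2 labelled KO), at 14.6, 19.7 and 55.3 CPM in Flox against 115, 1277 and 67.9 CPM in the labelled KO libraries.

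Tissue-resident macrophage genes had a median of 1.52 with all libraries and -0.50 without replicate 2 labelled KO. Mrc1, the mannose receptor, measured 13.2, 11.7 and 7.34 CPM in Flox against 25.3, 181 and 13.9 CPM in the labelled KO libraries and was the 1 of 9 genes apart (2.78, SE 0.93, 0.87 without replicate 2 labelled KO). Lyve1, a hyaluronan receptor, measured 2.65, 4.26 and 2.61 CPM in Flox against 1.59, 54.2 and 1.31 CPM in the labelled KO libraries, with replicates 1 and 3 labelled KO lowest of all. Lysosomal genes had 20 of 23 above 0 and a median of 0.59 (0.22 without that library). Ctsb, the abundant protease cathepsin B, measured 281, 322 and 453 CPM in Flox against 725, 1406 and 539 CPM in the labelled KO libraries, with all 3 libraries labelled KO higher (1.34, SE 0.42, 0.84 without replicate 2 labelled KO). Grn, progranulin, was apart at 67.5, 57.9 and 60.5 CPM in Flox against 78.9, 307 and 72.97 CPM in the labelled KO libraries (1.30, SE 0.55, 0.30 without replicate 2 labelled KO).

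**Figure D3:**
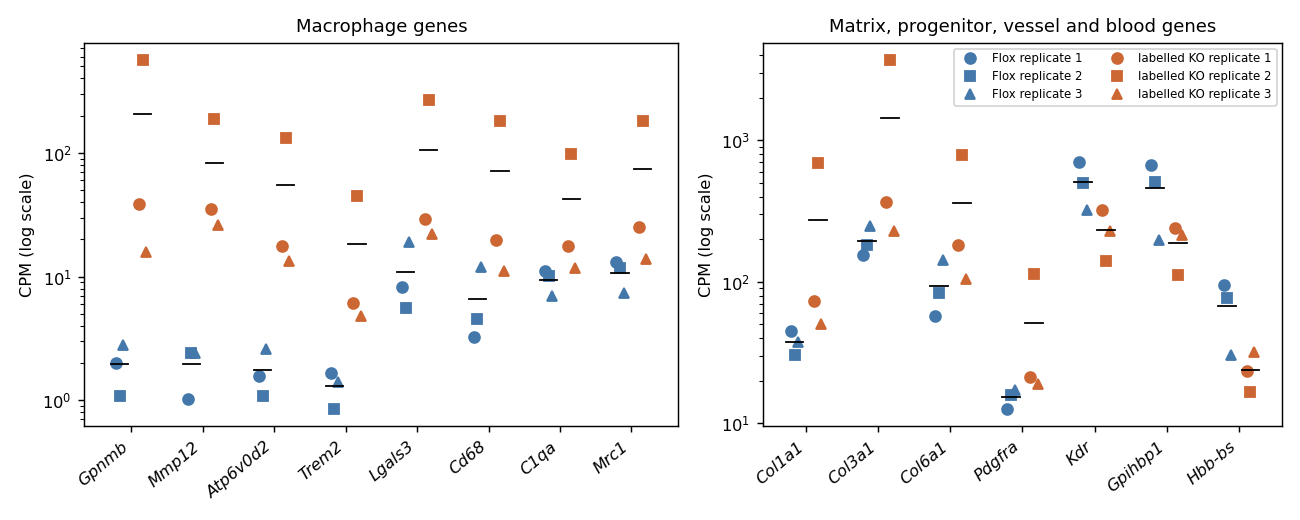
Levels in CPM (log scale) of 8 macrophage genes (left) and 7 genes of matrix, progenitors, vessels and blood (right), 1 point per library and a bar at the mean of each group of 3. Gpnmb, Mmp12, Atp6v0d2 and Trem2 lie higher in each library labelled KO, while for Cd68 and the collagens the gap is mostly replicate 2.

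Matrix genes were high in replicate 2 labelled KO and closer to Flox in replicates 1 and 3. Fibrillar and associated collagens had 11 of 12 above 0 and a median of 2.10, which was 0.60 without that library. In the higher direction 3 were apart, beside 6% of all genes tested. Col1a1, a chain of type I collagen, measured 44.6, 30.2 and 37.4 CPM in Flox against 73.6, 694 and 50.4 CPM in the labelled KO libraries (2.87, SE 0.97), and its second chain Col1a2 31.98, 33.1 and 46.3 CPM in Flox against 81.3, 949 and 46.2 CPM in the labelled KO libraries (3.27, SE 1.10; DESeq2 adjusted p = 0.0401). Col3a1, of type III collagen, measured 155, 182 and 247 CPM in Flox against 365, 3691 and 231 CPM in the labelled KO libraries (2.88, SE 1.02). In the 3 genes replicate 2 labelled KO was about an order of magnitude above the rest, and Col1a2 and Col3a1 overlapped between the groups. Without that library the differences were 0.73, 0.78 and 0.61. The medians of matrix glycoproteins, crosslinking enzymes and proteases, and basement membrane were 1.01, 0.65 and 0.36 with it, and 0.15, 0.07 and -0.02 without it. The last 2 were 0.98 without replicate 1 and 0.62 without replicate 3 labelled KO.

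Adipocyte progenitor genes followed the same library, with a median of 1.09 and 0.01 without it. Pdgfra, the receptor that marks progenitors, measured 12.7, 15.9 and 17.3 CPM in Flox against 21.1, 114 and 18.8 CPM in the labelled KO libraries (1.75, SE 0.69, 0.39 without replicate 2 labelled KO), with groups apart by a small margin. T cell genes had 11 of 11 above 0 at levels mostly of a few CPM or less, a median of 0.95, 0.36 without replicate 2 labelled KO and 1.58 without Flox replicate 3. Interferon response genes had a median of 1.35, and -0.40 without replicate 2 labelled KO. Isg15, an interferon-induced modifier, measured 6.57, 12.7 and 22.1 CPM in Flox against 6.69, 93.3 and 9.33 CPM in the labelled KO libraries. Cell cycle genes had medians of 0.86 with and -0.15 without that library, with Mki67, which marks dividing cells, at 13.9, 26.9 and 24.2 CPM in Flox against 13.04, 143 and 19.2 CPM in the labelled KO libraries. Casp1, the inflammatory caspase, measured 1.62, 3.14 and 3.18 CPM in Flox against 4.37, 39.5 and 3.45 CPM in the labelled KO libraries (2.57, SE 0.95, 0.56 without replicate 2 labelled KO), and Nlrp3, the sensor that activates it, 0.0791 to 2.58 against 0.352 to 1.88 CPM. The B cell, neutrophil and Schwann cell lists had medians of -0.02, -0.49 and 0.16, with ranges of -0.13 to 0.31, -1.22 to 0.01 and -0.08 to 0.40 when 1 library was left out. Of the 8 B cell genes 4 lay above 0. The highest, Jchain, was apart at 1.03, 3.52 and 3.69 CPM in Flox against 5.93, 43.3 and 9.60 CPM in the labelled KO libraries (DESeq2 adjusted p = 0.0344).

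Vessel transcripts were lower in the libraries labelled KO. Endothelial genes had 1 of 19 above 0 and a median of -0.89 (-0.67 without replicate 2 labelled KO). Of them 4 were apart in the lower direction, beside 6.88% of all genes tested, and the others overlapped. The score was 0.95, 0.58 and -0.19 across Flox and -0.20, -0.99 and -0.15 across the libraries labelled KO, and Flox replicate 3 was inside the range of the other group. Kdr, the main receptor of vascular endothelial growth factor, measured 703, 499 and 321 CPM in Flox against 324, 140.1 and 229 CPM in the labelled KO libraries (-1.14, SE 0.41). Gpihbp1, which anchors lipoprotein lipase on capillaries, measured 674, 505 and 196 CPM in Flox against 239, 113 and 215 CPM in the labelled KO libraries (-1.28, SE 0.49). Kdr and Gpihbp1 both overlapped between the groups. Rbp7, a retinol-binding protein of capillary endothelium in fat, measured 77.2, 31.1 and 36.1 CPM in Flox against 10.8, 6.83 and 24.3 CPM in the labelled KO libraries and was apart (-1.79, SE 0.54). Vwf, of larger vessels, was the exception, at 19.04, 19.5 and 6.74 CPM in Flox against 16.002, 45.1 and 8.23 CPM in the labelled KO libraries. Mural and smooth muscle genes had a median of -0.25 (-0.46 without Flox replicate 3 and 0.20 without Flox replicate 1) and none apart.

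Transcripts of red blood cells moved with the endothelial ones. The 5 tested blood genes all lay below 0, 1 was apart and the median was -1.41 (-0.88 without Flox replicate 1). Hbb-bs, beta-globin, measured 95.5, 76.6 and 30.2 CPM in Flox against 23.5, 16.6 and 31.8 CPM in the labelled KO libraries (-1.49, SE 0.44), so Flox replicates 1 and 2 were high and Flox replicate 3 lay among those labelled KO. The scores of the blood and endothelial lists ranked Flox replicates 1 and 2 first in the same way, and the part of retained blood in the endothelial values was not tested. Vegfa, the growth factor of vessels, measured 1335, 944 and 1678 CPM in Flox against 1035, 539 and 1745 CPM in the labelled KO libraries.

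Immediate early genes, which respond within minutes to a stimulus or to handling of the tissue, were lower in the libraries labelled KO. Of 22, 4 lay above 0 and the median was -1.30 (-1.55 without replicate 2 labelled KO). In the lower direction 8 were apart, beside 6.88% of all genes tested. Their score was 0.55, 1.38 and -0.08 across Flox and -1.23, -0.21 and -0.41 across the libraries labelled KO, highest in Flox replicate 2. Egr1, a zinc finger factor, measured 46.2, 440.1 and 30.7 CPM in Flox against 6.58, 12.3 and 18.2 CPM in the labelled KO libraries (-3.80, SE 1.07, -1.63 without Flox replicate 2; DESeq2 adjusted p = 0.00324). Nr4a1, an orphan nuclear receptor, measured 57.3, 111 and 42.7 CPM in Flox against 1.06, 2.88 and 15.3 CPM in the labelled KO libraries (-3.46, SE 0.95; DESeq2 adjusted p = 0.00613), and Fosb 3.80, 4.41 and 1.27 CPM in Flox against 0.352, 0.555 and 0.654 CPM in the labelled KO libraries (-2.59, SE 0.57; DESeq2 adjusted p = 0.0086). All 3 were apart, with Flox replicate 2 the highest library in each. Jun overlapped slightly (-1.24, SE 0.46, -0.77 without Flox replicate 2), and Atf3, a stress-induced member, was highest in replicate 2 labelled KO at 12.3, 77.8 and 13.1 against 10.6, 20.5 and 17.8 CPM. The time from death to freezing of the tissue was not given in the sources used here, and its part was not tested.

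In the lower direction Irs2 had the smallest unadjusted p among genes with groups apart and a Flox mean of 10 CPM or more. Irs2, an adaptor of the insulin receptor, measured 22.8, 23.5 and 24.1 CPM in Flox against 6.11, 7.41 and 9.30 CPM in the labelled KO libraries (-1.62, SE 0.26, unadjusted p = 0.000216, adjusted 0.569; DESeq2 adjusted p = 0.000222). The 3 Flox libraries were almost equal, and the others lay far below them. Adamts1, a secreted protease that limits vessel growth, measured 277, 187 and 146 CPM in Flox against 43.5, 40.9 and 62.2 CPM in the labelled KO libraries (-2.06, SE 0.33; DESeq2 adjusted p = 8.98e-05). Cyp2e1, a cytochrome P450, measured 237, 138 and 128 CPM in Flox against 46.2, 17.5 and 30.1 CPM in the labelled KO libraries (-2.42, SE 0.43; DESeq2 adjusted p = 0.000148). These 3 were apart by a wide margin, and without replicate 2 labelled KO they were -1.60, -1.94 and -2.13.

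Ackr3, a scavenging chemokine receptor, measured 38.9, 21.9 and 27.8 CPM in Flox against 10.5, 6.64 and 10.7 CPM in the labelled KO libraries (-1.67, SE 0.32). Several others of this rank are rapidly induced genes: Plk3, a stress kinase (-2.43), Sik1, a kinase induced by cyclic AMP (-1.89), Apold1, an endothelial early gene (-2.60), Nr4a2 (-1.59) and Spry4, a feedback inhibitor of growth factor signalling (-1.30), with SE of 0.47, 0.46, 0.64, 0.39 and 0.31. Sema4c, a semaphorin, was lower too (-1.13, SE 0.29). P2rx6, an ATP-gated channel, measured 5.90, 4.26 and 2.95 CPM in Flox against 0.646, 1.05 and 0.832 CPM in the labelled KO libraries (-2.37, SE 0.43), and DESeq2 called it (adjusted p = 0.000421). In the higher direction the rule also named Zfp949, a zinc finger gene, at 14.6, 13.4 and 13.7 CPM in Flox against 30.6, 27.8 and 45.5 CPM in the labelled KO libraries (1.31, SE 0.26; DESeq2 adjusted p = 0.0215), with replicate 3 labelled KO the highest.

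Skeletal muscle transcripts, which belong to another tissue, had the widest range of list scores between the libraries. Fast fibre genes had 17 of 17 above 0, none apart and a median of 1.33 (-0.25 without replicate 1 labelled KO and 2.62 without Flox replicate 2), which was -0.93 with the muscle score as a covariate. Myh4, the fastest myosin heavy chain, measured 122, 1932 and 989.7 CPM in Flox against 13145, 2524 and 89.7 CPM in the labelled KO libraries, so the lowest and the highest library were both labelled KO. Slow fibre genes had 8 of 9 above 0, 3 apart and a median of 4.23 (1.07 without replicate 1 labelled KO), which was 1.02 with that covariate. The score is the mean of these same fast and slow genes, so both medians with the covariate are set in part by how it was made. Myh7, the slow myosin heavy chain, measured 0.237, 1.70 and 0.402 CPM in Flox against 1254, 147 and 11.5 CPM in the labelled KO libraries (9.24, SE 1.92; DESeq2 adjusted p = 2.53e-05). Replicate 3 labelled KO, which had the least Myh4, still held more Myh7 than every Flox library.

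Per 1000 Myh4 reads, Myh7 had 2.10, 0.892 and 0.423 reads in Flox against 95.4, 58.3 and 128 in the labelled KO libraries. The groups did not overlap, and the log2 ratio differed by 6.59 (exact two-sided permutation p = 0.1, the smallest that 3 against 3 allows; adjusted over 4 ratios 0.4). The Flox values rest on 6, 44 and 12 reads of Myh7. Tnnt1, slow troponin T, measured 3.68, 8.36 and 6.23 CPM in Flox against 481, 64.1 and 9.15 CPM in the labelled KO libraries (4.92, SE 1.32, 2.59 without replicate 1 labelled KO), and Tnnc1, slow troponin C, 1.19, 2.13 and 0.872 CPM in Flox against 63.8, 8.63 and 5.94 CPM in the labelled KO libraries (4.23, SE 1.0, 2.38 without replicate 1 labelled KO; DESeq2 adjusted p = 0.000128). Both were apart, narrowly for Tnnt1. Tnni1, slow troponin I, reached the read minimum in too few libraries to be tested, with 3, 5 and 0 in Flox against 668, 126 and 4. Myh6, the heart myosin and a close paralog next to Myh7, measured 0.237, 0.31 and 0.067 CPM in Flox against 30.2, 3.84 and 0.773 CPM in the labelled KO libraries (5.82, SE 1.43, 3.49 without replicate 1 labelled KO), and Mhrt, a long noncoding RNA antisense to Myh7, 0.119, 0.619 and 0.134 CPM in Flox against 366, 43.3 and 5.79 CPM in the labelled KO libraries (8.89, SE 1.76). The library kit keeps strand, but whether the counting used it is not given in the sources used here. Mhrt and Myh7 overlap in position, so their reads cannot be told apart. Myh6 overlaps neither, and how reads that match both it and Myh7 were counted is not given either. Heart muscle genes had 4 of 4 tested above 0, 1 apart beside 6% of all genes, and a median of 2.34 (1.36 without replicate 2 labelled KO). Tnni3, the lowest of them, stayed at 1.09 to 1.49 CPM in all 6 libraries. Tnnt2, cardiac troponin T, measured 0.237, 0.387 and 0.134 CPM in Flox against 2.64, 10.9 and 0.297 CPM in the labelled KO libraries. Its groups overlapped, and DESeq2 called it (adjusted p = 0.00942). With the muscle score as a covariate, 2 genes passed in edgeR, Mhrt and Myh7. Myh7 is itself a member of that score, so this fit does not separate it from muscle content.

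**Figure D4:**
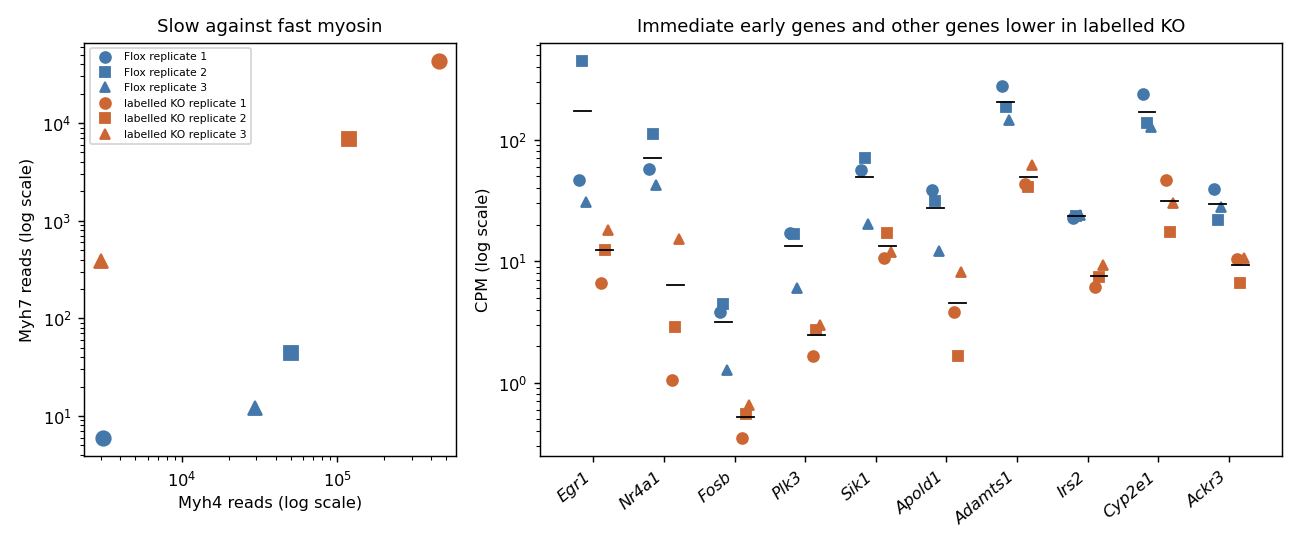
Left, reads of Myh7 against reads of Myh4 in each library (both log scales). Right, levels in CPM (log scale) of 10 immediate early genes and other genes with small p in the lower direction, 1 point per library and a bar at the mean of each group of 3. The libraries labelled KO lie above the Flox libraries in Myh7 at any Myh4 level (58.3 to 128 against 0.423 to 2.10 reads per 1000) and below them in the 10 genes.

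Genes of protein and oxidative stress, which respond when protein turnover falters, had small list medians, with single members further from 0 in both directions. Endoplasmic reticulum chaperones had 16 of 17 above 0, 2 apart in the higher direction and a median of 0.36, which was 0.13 without replicate 2 labelled KO. Hspa5, the chaperone BiP, measured 558, 448 and 594 CPM in Flox against 393, 735 and 532 CPM in the labelled KO libraries. Targets of ATF4, the factor of the integrated stress response, had a median of 0.30 (-0.17 without it, and 0.18 without Flox replicate 1), and Trib3, one of them, 3.36, 2.98 and 2.68 CPM in Flox against 5.46, 14.1 and 2.88 CPM in the labelled KO libraries. Fgf21, a hormone of the same response, reached the read minimum in too few libraries to be tested, with 18, 0 and 2 in Flox against 0, 146 and 0. Ubiquitin, autophagy and heat shock genes had a median of 0.06 (-0.01 to 0.20 when 1 library was left out). Sqstm1, the autophagy receptor p62, measured 145, 151 and 228 CPM in Flox against 215, 686 and 168 CPM in the labelled KO libraries, high in replicate 2 labelled KO alone.

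The antioxidant response, which the related factor NRF2 controls through the same element, had 11 of 21 above 0, and 7 without replicate 2 labelled KO. The median was 0.15 (-0.14 without replicate 2 labelled KO and 0.29 without replicate 3 labelled KO). Gclc, the catalytic subunit of glutathione synthesis, was apart by little at 14.1, 11.9 and 16.995 CPM in Flox against 22.7, 19.2 and 17.2 CPM in the labelled KO libraries (0.46, SE 0.26). Txnrd1, thioredoxin reductase, was the highest member, at 44.2, 38.1 and 74.4 CPM in Flox against 132, 169 and 54.2 CPM in the labelled KO libraries (1.18, SE 0.45). The metallothioneins, small metal-binding proteins, lay at the other end. Mt1 measured 49.3, 28.4 and 44.7 CPM in Flox against 11.9, 9.06 and 30.2 CPM in the labelled KO libraries (-1.26, SE 0.47, -1.94 without replicate 3 labelled KO) and Mt2 14.3, 12.5 and 27.7 CPM in Flox against 7.11, 9.06 and 13.9 CPM in the labelled KO libraries (-0.86, SE 0.40, -0.42 without Flox replicate 3), with overlap in both.

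**Figure D5:**
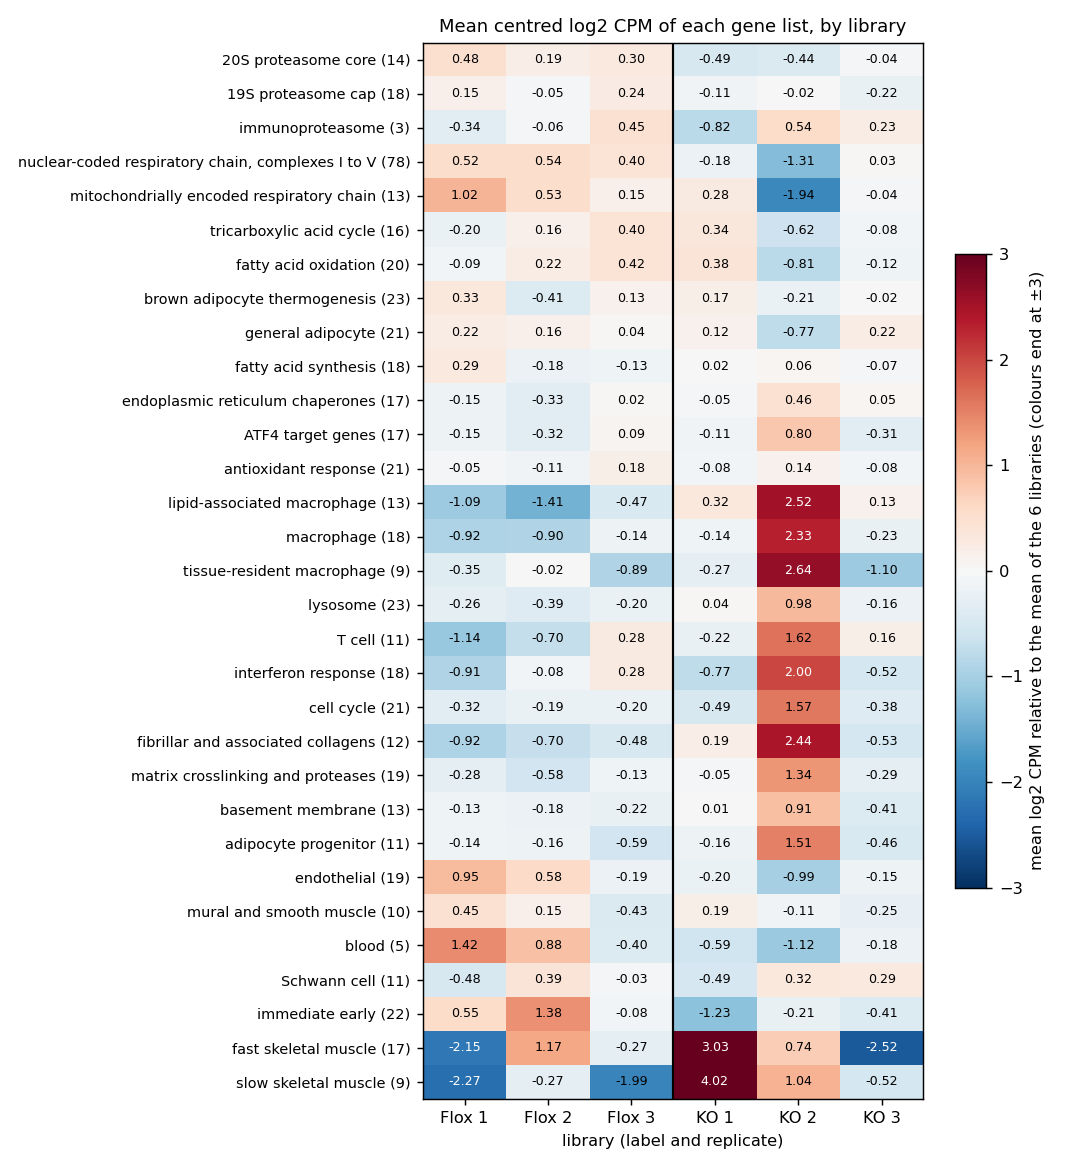
Scores of 31 gene lists (rows, with the number of genes tested) in the 6 libraries (columns): the mean over genes of log2 CPM centred on the 6 libraries, with colour limits of 3 in either direction. The 20S core and respiratory chain are lower in each library labelled KO, macrophage, interferon, cell cycle and collagen lists peak in replicate 2 labelled KO, and muscle lists vary within both groups.

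The libraries labelled KO also differed among themselves. Replicate 3 labelled KO had scores of -0.04 for the 20S core, 0.03 for the respiratory chain, 0.13 for lipid-associated macrophages and -0.23 for general macrophages. Each of the first 3 lay outside the range of the Flox libraries, and the last inside it. Replicate 1 lay outside that range in the same 3 lists, at -0.49, -0.18 and 0.32. Replicate 2 was the most distant in the respiratory chain and macrophage lists, and in the 20S core it was level with replicate 1, at -0.44.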

How the data were processed

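The 6 libraries were grouped by the genotype in their labels. Per the submitters' processing notes reads were handled with Trimmomatic 0.36, STAR 2.5.3a, featureCounts and Subread 1.5.1 on GRCm38, and the authors deposited raw read counts per gene, all whole numbers. How multi-mapped reads and strand were treated is not given in the sources used here. Among counts from 1 to 20, 76.2% to 78.4% were even, so counts may include both reads of a pair. The table also gives gene lengths. The 4-week table is not used here.

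Counts were tested in R 4.3.3 with edgeR 4.0.16: filterByExpr by group, TMM scaling, quasi-likelihood F test (robust), Benjamini-Hochberg adjustment over all 17962 genes and a threshold of 0.05. The 4 ratios per library were compared by exact two-sided permutation tests, with 0.5 reads added to each side. Lists (58, with 760 of 801 genes tested) are described by counts and medians without a test. Transcript lengths come from GENCODE M21 and promoters from RefSeq (GRCm38.p6). The members and lists were chosen with earlier results of these data known. Named genes are Nfe2l1, set members of each list, the 10 genes per direction with the smallest unadjusted p among those with groups apart and at least 10 CPM in the higher group, 6 per direction by DESeq2, and the extremes of lists. Genes named for their position beside Nfe2l1 or for a promoter match fall outside that rule, as does Tnnt2.

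Alternatives were DESeq2 1.42.0, limma 3.58.1 voom with and without sample weights, other scalings and filters, a replicate block, a muscle covariate, mitochondrial genes left out and each library left out. Chosen after seeing the data were DESeq2 on all genes with a read, a fit without nuclear copies of mitochondrial genes and ribosomal RNA, and the length offset. No 2 libraries were alike within sampling noise. Replicate numbers did not pair the libraries (correlations of deviations -0.0099, -0.042 and -0.025). On simulated data (17546 genes, 50 changed at each fold) the edgeR test recovered 2%, 80%, 94% and 100% of 2-, 4-, 8- and 16-fold changes, and 5.48% of 146 calls were false. The simulation drew each gene on its own, without a library that stands apart or variation shared between genes. These shares may therefore not hold for the 6 libraries.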

Additional observations from a re-analysis of the deposited data

How the results depend on the processing

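The count of 0 genes past the threshold in edgeR held under limma-voom with and without sample weights, RLE and upper-quartile scaling, both other filters, the replicate block, the length offset and the fits without mitochondrial genes. It was 49 in DESeq2, 76 in DESeq2 on all genes with a read (60 higher, 16 lower), 2 with the muscle covariate and 0 to 1 when a library was left out, the 1 being Mmp12 without replicate 2 labelled KO. Nfe2l1 passed in DESeq2 (2.07, adjusted p = 0.000128) and in DESeq2 on all genes (2.07, adjusted p = 0.000237), and ranged from 1.78 to 2.35 when a library was left out. With the replicate block it was 1.98 (adjusted p = 0.743) and 0 genes passed, so the block changed no call. Of the 4 ratios none changed its side of the threshold, which 3 against 3 libraries cannot reach. Ndufs1, Sdha and Atp5a1, all near 0, changed sign: they were -0.0060, -0.061 and -0.21 with the muscle covariate, and -0.064 to 0.72, -0.12 to 0.59 and -0.28 to 0.32 when a library was left out, negative without replicate 1 labelled KO and, for the last 2, without Flox replicate 1. Copz2 was 0.035 with the muscle covariate, 0.24 with the length offset and -0.49 to 0.11 when a library was left out, positive without replicate 1 or replicate 2 labelled KO (0.0044 and 0.11). The cause was not tested. Of 96 genes followed, no other changed direction, and 46 turned or moved by over 1.5 times when a library was left out, 31 of them without replicate 2 labelled KO. Of 1138 list medians under alternatives 74 changed sign, in 27 of 60 lists, and 55 moved by more than the spread between replicates. With 3 libraries a group, changes of 2-fold were mostly below what the test could call in the simulation. In the data larger differences did not pass either.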

Other observations

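Chemokines and cytokines had 12 of 19 tested genes above 0 and a median of 0.51, which was -0.39 without replicate 2 labelled KO and 1.37 without Flox replicate 3. Il1b, an inflammatory cytokine, measured 0.356, 2.13 and 11.3 CPM in Flox against 0.763, 1.43 and 3.86 CPM in the labelled KO libraries, and Ccl2, which draws monocytes, 0.633, 2.98 and 16.6 CPM in Flox against 1.32, 9.93 and 7.25 CPM in the labelled KO libraries, with Flox replicate 3 the highest library for both. Mast cell genes had 4 of 4 tested above 0 and a median of 2.38 (0.41 without replicate 2 labelled KO), and Cpa3, their carboxypeptidase, measured 1.11, 0.465 and 1.31 CPM in Flox against 2.23, 8.37 and 0.565 CPM in the labelled KO libraries. The dendritic cell, natural killer cell and lymphatic endothelial lists had medians of 0.45, 1.23 and 2.00, and without that library -0.34, 0.41 and 0.21. The first 2 were 0.82 and 2.51 without Flox replicate 3. The lymphatic list rests on 4 tested genes, 3 of them above 0. Its marker Flt4 went the other way, at 19.4, 15.6 and 9.86 CPM in Flox against 13.1, 5.38 and 6.69 CPM in the labelled KO libraries, with overlap.

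Cholesterol export genes had 4 of 6 above 0 and a median of 0.40 (0.21 without replicate 1 labelled KO and 0.26 without replicate 2 labelled KO), and their score was 0.14, -0.22 and -0.10 across Flox and 0.23, 0.06 and -0.11 across the libraries labelled KO. Abca1, the exporter to lipoproteins, measured 58.5, 55.4 and 65.1 CPM in Flox against 136, 108 and 49.4 CPM in the labelled KO libraries, and Abcg1, a second exporter, 7.76, 6.19 and 9.75 CPM in Flox against 21.7, 32.9 and 6.42 CPM in the labelled KO libraries. Replicate 3 labelled KO was inside or below the Flox range for both. Apoe, a lipoprotein component of the same list, measured 3296, 3629.8 and 3410.3 CPM in Flox against 3909, 2251 and 4729 CPM in the labelled KO libraries, with replicate 2 labelled KO below every Flox library. Cholesterol synthesis had 7 of 11 above 0 and a median of 0.41, and 0.06 without replicate 2 labelled KO and 0.16 without Flox replicate 1. Angiogenic factors had 2 of 10 above 0 and a median of -0.51 (-0.12 without Flox replicate 3 and -0.31 without replicate 2 labelled KO), genes of p53 and senescence had 0.27 (0.08 without replicate 2 labelled KO) and clock genes -0.04 (-0.17 to 0.25 when 1 library was left out). The clock genes varied within both groups: Arntl measured 15.1, 0.736 and 4.09 CPM in Flox against 8.07, 8.14 and 2.61 CPM in the labelled KO libraries. The marker genes not tested for lack of reads included Prox1 of lymphatic vessels, Msln and Upk3b of mesothelium, Pax7 and Myog of regenerating muscle, Nppa of heart, and the cytokine Il6.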
